A study of Rattus norvegicus with 8 samples.

Results

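DNA replication genes were followed here as a group of 40 gene symbols, chosen by name for their work in S phase and matched to the gene names of the expression table. The choice was made with earlier results of these data known. Shares of the group set beside those of all genes therefore describe it and are not independent support. The symbols matched 42 of the 30240 rows of that table, because Pclaf and Cdc45 are each listed in 2 rows. Of these, 26 rows were among the 6849 genes tested, which reached 1 CPM (a gene's reads scaled to a common library size) in at least 4 of 8 libraries. The other 16 rows are described by their reads only.

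The cells were SF2, a rat line of dental epithelium whose source is the incisor's cervical loop in the mandible. The 8 libraries were 4 from AmeloD-overexpressing cells and 4 from Control cells, where AmeloD, the product of Ascl5, is a bHLH transcription factor of dental epithelium. Within each genotype the 4 libraries were labelled pCMV6 N, then pCMV6.ODAM N and pCMV6.ODAM TGF, and last pCMV6 TGF, where pCMV6 is an expression plasmid, pCMV6.ODAM names the same plasmid with ODAM, an odontogenic ameloblast-associated protein, and the labels do not spell out N and TGF. In what follows, values listed for a genotype stand in that order of 4 libraries. Each combination had 1 library, so that all libraries shared SF2 as their background and each factor was tested 4 against 4 in an additive model with the other factors as terms. Nothing in the labels says whether the genotypes were clones or pools, or whether libraries came from separate cultures, so the p-values measure only the spread between these libraries.

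Before DNA is copied, the origin recognition complex, Cdc6 and Cdt1 load the ring of Mcm2 to Mcm7 onto origins, and Cdc45 and the GINS complex turn it into the active helicase. Polymerase alpha with its primase then starts each new strand, the clamp Pcna is placed by clamp loaders, and ligase joins the fragments, while ribonucleotide reductase and its partners supply the nucleotides. Most of these genes are transcribed as cells pass from G1 into S phase, under E2F factors held in check by the RB family. In the incisor, the cervical loop holds the dividing epithelial cells that later leave the cycle and become ameloblasts.

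Library totals recovered from the CPM steps were 10568146 to 13668736 reads in AmeloD cells and 14766931 to 17775226 reads in Control cells, of which 15.6% to 17.5% fell on genes of the table. A count of 3 reads corresponded to 0.169 to 0.284 CPM, and most members lay within a few CPM, so that counting error is large for them. Ascl5 had 0 reads in all 8 libraries, so the table does not check the overexpression, and Odam had 31 reads over the pCMV6.ODAM libraries, against 1 over the pCMV6 libraries. Of 10 epithelial markers, 8 were found, and Krt14 and Trp63 were not among the gene names. Of the 8, 7 had reads and Krt18 was at 0. Their sum was 784 to 950 CPM in AmeloD cells, against 553 to 703 CPM in Control cells. All 6 enamel matrix markers had 0 reads.

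Replication genes were lower in AmeloD cells. Of the 26 tested, 9 fell and 0 rose at a Benjamini-Hochberg adjusted p under 0.05 (limma on log2(CPM + 1), over all genes tested), and 17 did not pass. Among all genes tested, 4.75% were called lower and 9.07% higher in the same comparison, or 325 and 621 genes. These shares depend on the scaling. With trimmed-mean (TMM) scaling, 481 genes were called lower and 532 higher, and the median of all genes moved by -0.05. The 9 were Dscc1, Pclaf, Rrm2, Mcm3, Mcm5, Hells, Dut, Prim1 and Lig1. Of these, Dut, Mcm3, Mcm5 and Prim1 reached 1 CPM in more Control than AmeloD libraries, so they entered the test through the Control side. With no filter beyond 1 read, 6 members were called, and the share of all genes under that setting is not given here. The median log2 change of the 26 was -0.40 (interquartile range -0.63 to -0.17), beside 0.05 for all genes tested, and 23 of the 26 were below 0 (88.5%), beside 43% of all genes.

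**Figure D1:**
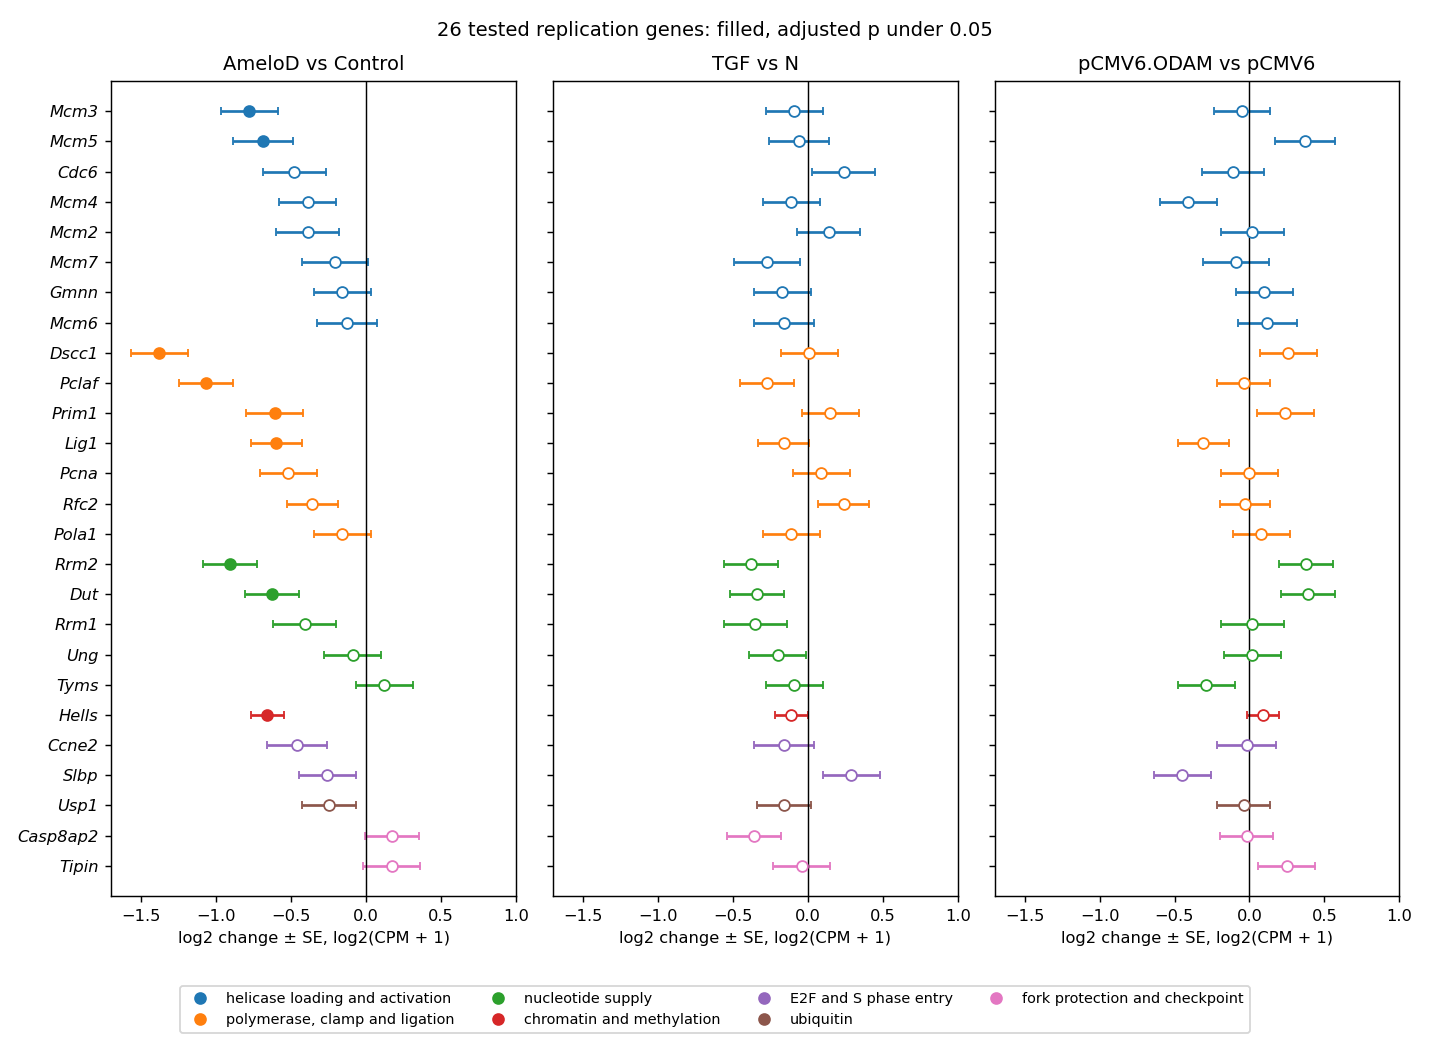
Log2 change of each of the 26 tested replication genes on the log2(CPM + 1) scale, in panels for AmeloD against Control, TGF against N and pCMV6.ODAM against pCMV6, with standard errors from the limma fit over 8 libraries, coloured by role; filled points passed an adjusted p of 0.05. All 9 filled points lie in the AmeloD panel, from Dscc1 at -1.38 to Lig1 at -0.60, and the other panels have only open points.

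Summed over the 42 rows, the members held 79.4, 106, 77.9 and 99.3 CPM in the AmeloD libraries, against 148, 156, 138 and 134 CPM in the Control libraries. All 4 AmeloD libraries lay below all 4 Control libraries, with means of 90.7 ± 14.1 and 144 ± 9.93 CPM (SD, n = 4 each), a ratio of 0.63. Hells supplied the largest part of these sums, and without it the means were 49.5 ± 9.19 CPM in AmeloD cells and 78.4 ± 4.38 CPM in Control cells, a ratio of 0.631. In bulk RNA, fewer cells in S phase and less RNA of these genes per cell cannot be told apart. Other values moved with genotype too: the summed mesenchymal markers were 17.8 to 27.5 CPM in AmeloD cells, against 34.4 to 64.8 CPM in Control cells (4 of 8 with a read; Col1a2, Dcn, Lum and Pdgfrb at 0), and the leukocyte markers 2.77 to 3.73 CPM, against 0.876 to 1.63 CPM (4 of 6 with a read; Tyrobp and Lyz2 at 0). Endothelial markers summed to 0.593 to 2.05 CPM in AmeloD cells, against 1.01 to 1.95 CPM in Control cells (3 of 5 with a read; Tek and Kdr at 0). Library totals were lower in every AmeloD library. The part of these differences in the result was not tested, and depth was only evened out by a random thinning of reads. With the reads of every library thinned once to the same table total, and the same genes tested, 7 of the 9 were still called.

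The genes of the polymerase, the sliding clamp and ligation held 4 of the 9 calls among 7 tested members, with a median log2 change of -0.60. Dscc1, a subunit of the alternative clamp loader that acts in sister chromatid cohesion, is gene ENSRNOG00000026502 on chromosome 7 (86482588 to 86498212 on the minus strand of mRatBN7.2). It had 1.61, 4.45, 2.34 and 3.79 CPM in AmeloD cells, against 8.32, 10.4, 9.55 and 8.21 CPM in Control cells. The groups did not overlap, and the highest AmeloD library was the pCMV6.ODAM N library. Means were 3.05 ± 1.3 and 9.13 ± 1.06 CPM (SD, n = 4 each), a ratio of 0.334, and the log2 change was -1.38 ± 0.19 (SE; limma adjusted p = 1.42e-05).

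Pclaf, the Pcna clamp-associated factor, ENSRNOG00000067723 on chromosome 8 (66420587 to 66432994, plus strand), had 1.61, 2.67, 1.24 and 1.76 CPM in AmeloD cells, against 5.26, 5.28, 3.77 and 5.06 CPM in Control cells. Again no AmeloD library reached the lowest Control library. The log2 change was -1.07 ± 0.18 (limma adjusted p = 0.00019), with a ratio of mean CPM of 0.376. A second row of the same symbol, on chromosome 8 from 108560971 to 108561319, had 2 reads in AmeloD cells and 8 in Control cells, and how reads were shared between the 2 rows was not tested.

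Prim1, the catalytic subunit of primase, ENSRNOG00000031993 on chromosome 7 (431805 to 462526, plus strand), had 0.852, 1.11, 1.83 and 0.924 CPM in AmeloD cells, against 1.75, 2.78, 2.08 and 2.64 CPM in Control cells. The ranges overlapped, by the AmeloD pCMV6.ODAM TGF library. Its log2 change was -0.61 ± 0.19 (limma adjusted p = 0.0292), a call lost under 9 of 19 other settings. Among these were leaving out, of AmeloD libraries, pCMV6 N, pCMV6.ODAM N or pCMV6 TGF (limma adjusted p = 0.076, 0.088 and 0.0888) and, of Control libraries, pCMV6 N, pCMV6.ODAM N or pCMV6 TGF (limma adjusted p = 0.0561, 0.129 and 0.136). Lig1, the ligase that joins Okazaki fragments, ENSRNOG00000014193 on chromosome 1 (74165842 to 74204413, plus strand), had 5.2, 3.56, 2.56 and 3.42 CPM in AmeloD cells, against 6.76, 4.81, 6.04 and 6.41 CPM in Control cells. Only the AmeloD pCMV6 N library overlapped the Control range. Its log2 change was -0.60 ± 0.17 (limma adjusted p = 0.0175), a call lost without the AmeloD pCMV6.ODAM TGF or pCMV6 TGF library (limma adjusted p = 0.0598 and 0.0675) or without the Control pCMV6.ODAM TGF or pCMV6 TGF library (limma adjusted p = 0.0802 and 0.058).

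Pcna itself, the clamp, had 2.46, 2.08, 1.61 and 2.68 CPM in AmeloD cells, against 3.07, 3.32, 5.07 and 3.09 CPM in Control cells. These groups did not overlap either, but the log2 change of -0.52 ± 0.19 missed the threshold (limma adjusted p = 0.0685). It was past it with trimmed-mean (TMM) scaling (limma adjusted p = 0.0365) and in edgeR's quasi-likelihood test on the recovered reads (adjusted p = 0.0398). Rfc2, a subunit of the clamp loader, was at -0.36 ± 0.17, and Pola1, the catalytic subunit of polymerase alpha, at -0.16 ± 0.19 on the same log2 scale; neither passed.

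**Figure D2:**
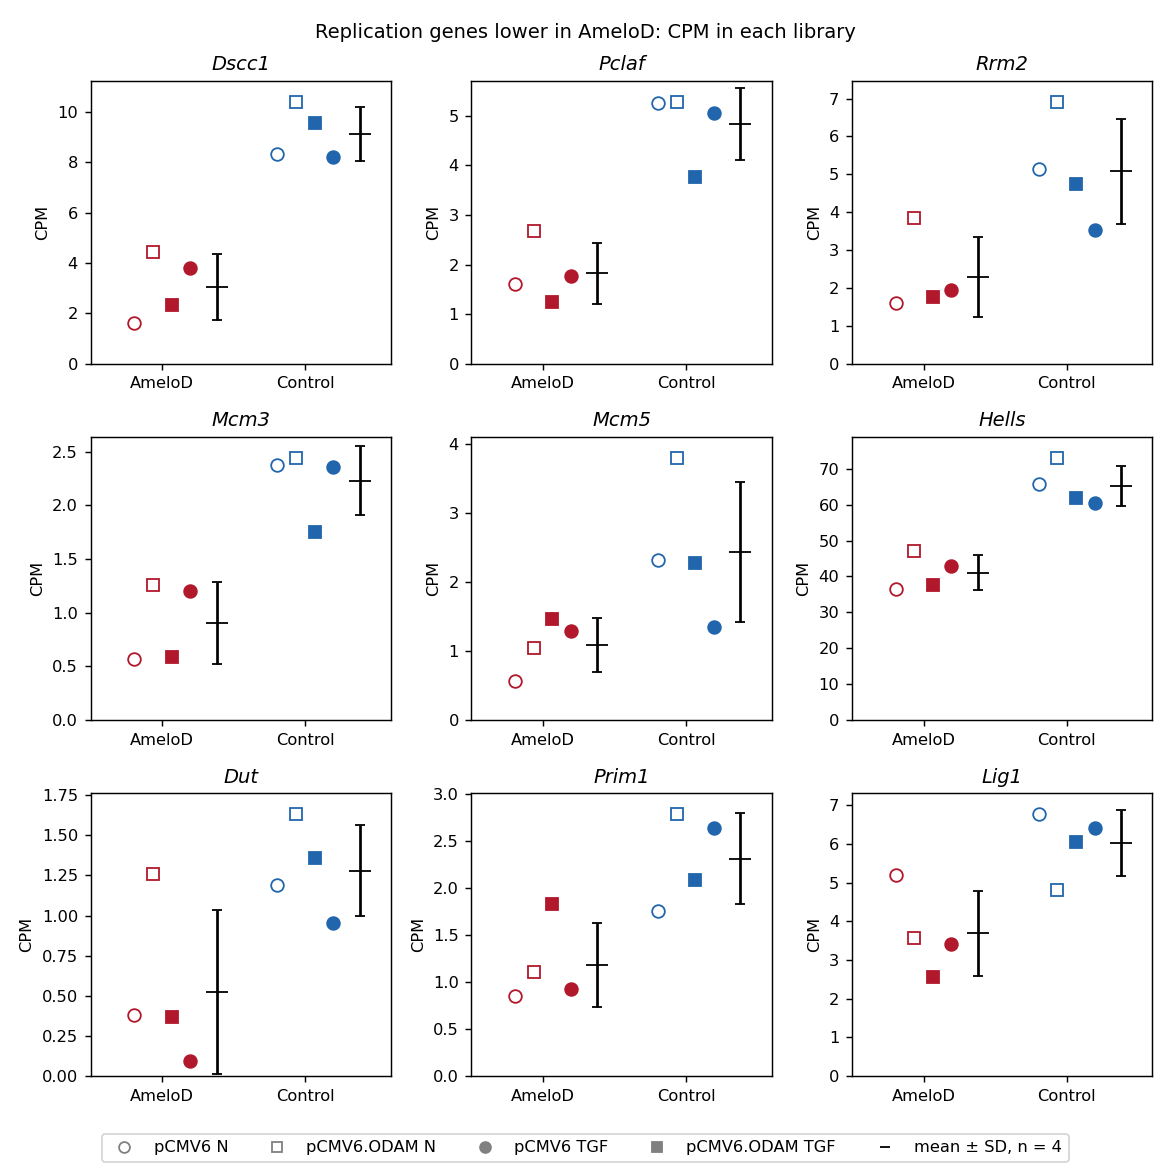
Level in CPM, in each of the 8 libraries, of the 9 replication genes called lower in AmeloD-overexpressing cells, with AmeloD libraries left and Control libraries right in each panel shapes for the plasmid and TGF labels, and the mean ± SD of 4 beside them. The groups do not overlap for Dscc1, Pclaf, Mcm3 and Hells, and overlap for Rrm2, Mcm5, Dut, Prim1 and Lig1.

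Helicase genes gave 2 calls among 8 tested, with a median log2 change of -0.39. Mcm3, a subunit of the ring, is ENSRNOG00000012543 on chromosome 9 (23219169 to 23237314, minus strand). Its level was 0.568, 1.26, 0.585 and 1.2 CPM in AmeloD cells, against 2.38, 2.44, 1.75 and 2.36 CPM in Control cells. No library of the 2 genotypes overlapped. Mcm3 changed by -0.78 ± 0.19 on the log2 scale (limma adjusted p = 0.00683), with a ratio of mean CPM of 0.405. Leaving out the AmeloD pCMV6 N library ended this call (limma adjusted p = 0.0584).

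Mcm5, another subunit of the ring, ENSRNOG00000014336 on chromosome 19 (13483066 to 13504389, plus strand), had 0.568, 1.04, 1.46 and 1.29 CPM in AmeloD cells, against 2.32, 3.79, 2.27 and 1.35 CPM in Control cells. The Control pCMV6 TGF library fell inside the AmeloD range. The log2 change was -0.69 ± 0.20 (limma adjusted p = 0.0227), lost under 5 of 19 other settings. Of these, 4 left out the AmeloD pCMV6 N or pCMV6.ODAM N library (limma adjusted p = 0.113 and 0.112) or the Control pCMV6 N or pCMV6.ODAM N library (limma adjusted p = 0.0942 and 0.151). Although the 6 ring subunits act as a single complex, the log2 changes of the others were -0.39 ± 0.21 for Mcm2, -0.39 ± 0.19 for Mcm4, -0.21 ± 0.22 for Mcm7 and -0.13 ± 0.20 for Mcm6, and none of these passed (limma adjusted p = 0.189 to 0.732).

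Mcm6 had 1.14, 2.3, 2.05 and 1.57 CPM in AmeloD cells, against 3.07, 1.9, 1.69 and 1.52 CPM in Control cells, where only the pCMV6 N library stood above the AmeloD range. In Mcm7, too, the Control pCMV6 N library was highest, with 1.32, 2.67, 1.32 and 1.48 CPM in AmeloD cells, against 3.88, 1.29, 1.95 and 1.63 CPM in Control cells. Among the loading factors, Cdc6 changed by -0.48 ± 0.21 (limma adjusted p = 0.149). Its 1.7, 1.33, 1.68 and 4.07 CPM in AmeloD cells, against 3.19, 3.52, 4.03 and 2.36 CPM in Control cells, overlapped through the AmeloD pCMV6 TGF library alone. Without that library Cdc6 was called lower (limma adjusted p = 0.0146), as it was without the Control pCMV6 TGF library (limma adjusted p = 0.032). Gmnn, which encodes geminin, the inhibitor of Cdt1, was at -0.16 ± 0.19.

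In nucleotide supply, 2 of 5 tested members fell, with a median log2 change of -0.41. Rrm2, the small subunit of ribonucleotide reductase that rises in S phase, is ENSRNOG00000054286 on chromosome 6 (41340557 to 41346773, plus strand). It had 1.61, 3.86, 1.76 and 1.94 CPM in AmeloD cells, against 5.13, 6.91, 4.74 and 3.54 CPM in Control cells. The ranges touched only because the AmeloD pCMV6.ODAM N library lay above the lowest Control library. Rrm2 changed by -0.91 ± 0.18 (limma adjusted p = 0.00107), a ratio of mean CPM of 0.451. Its partner Rrm1, the large subunit, was at -0.41 ± 0.21 and did not pass (limma adjusted p = 0.219), except without the AmeloD pCMV6 TGF library (limma adjusted p = 0.0217).

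Dut, the dUTPase that keeps uracil out of DNA, ENSRNOG00000007221 on chromosome 3 (112498982 to 112510771, plus strand), had 0.378, 1.26, 0.366 and 0.0924 CPM in AmeloD cells, against 1.19, 1.63, 1.36 and 0.956 CPM in Control cells. These were 27 and 81 reads, and 3 of the 4 AmeloD libraries lay below every Control library. The log2 change was -0.63 ± 0.18 (limma adjusted p = 0.0209), lost under 7 of 18 other settings. Of these, 5 left out the AmeloD pCMV6 N, pCMV6.ODAM TGF or pCMV6 TGF library (limma adjusted p = 0.0685, 0.0783 and 0.0572) or the Control pCMV6.ODAM TGF or pCMV6 TGF library (limma adjusted p = 0.051 and 0.101). Ung, the glycosylase that removes uracil from DNA, was at -0.09 ± 0.19, and Tyms, thymidylate synthase, at 0.12 ± 0.19, with 1.27 ± 0.133 CPM in AmeloD cells and 1.13 ± 0.549 CPM in Control cells (SD, n = 4 each).

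Hells, a chromatin remodeller of the SNF2 family needed for DNA methylation, was the most deeply counted member, with 2001 reads in AmeloD cells and 4160 in Control cells. The gene is ENSRNOG00000047692 on chromosome 1 (236701758 to 236746844, plus strand). It stood at 36.5, 47.2, 37.5 and 43 CPM in AmeloD cells, against 65.9, 73, 61.9 and 60.5 CPM in Control cells, with no overlap. Means were 41.1 ± 4.99 and 65.3 ± 5.59 CPM (SD, n = 4 each), a ratio of 0.628, and the log2 change was -0.66 ± 0.11 (limma adjusted p = 0.000139). The pseudocount of 1 hardly touches a gene at this level, whereas it shrinks the changes of the members near 1 CPM. On the recovered reads, edgeR gave log2 changes of -0.74 for Hells, -1.36 for Mcm3 and -1.45 for Dut. These also hold the TMM scaling that edgeR applies. Limma with TMM scaling and the pseudocount of 1 gave -0.73, -0.82 and -0.66 for the same genes.

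The remaining tested members did not pass. Ccne2, a cyclin of S phase entry, was at -0.46 ± 0.20 (limma adjusted p = 0.128), Slbp, which binds the histone mRNA stem-loop, at -0.26 ± 0.19, and Usp1, a deubiquitinase that acts on Pcna, at -0.25 ± 0.18. The members above 0 were Tyms, Tipin, which protects stalled forks, at 0.17 ± 0.19, and Casp8ap2, needed for histone gene expression, at 0.17 ± 0.18. Tipin had 2.65, 4.52, 2.71 and 3.51 CPM in AmeloD cells, against 2.69, 2.78, 3.9 and 2.08 CPM in Control cells, which overlapped over most of their range.

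Counting the libraries themselves, AmeloD was lower in 4 of 4 pairs matched for plasmid and TGF label in 12 of the 26 tested members, beside 12.6% of all genes tested. The groups did not overlap for 5 members (Dscc1, Pclaf, Mcm3, Hells and Pcna), all with AmeloD lower, beside 5.53% of all genes lying wholly lower and 9.49% wholly higher. Of the 26, 15 reached 1 CPM in all 8 libraries. Another 9 (Ccne2, Dut, Mcm2, Mcm3, Mcm4, Mcm5, Pola1, Prim1 and Slbp) reached it in more Control than AmeloD libraries, in at most 3 AmeloD libraries, so that they entered the test through the Control side. Of the 9 calls, 4 were among these (Dut, Mcm3, Mcm5 and Prim1), and Dut, with a mean of 0.904 CPM over all libraries, was left out by a filter on the mean.

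**Figure D3:**
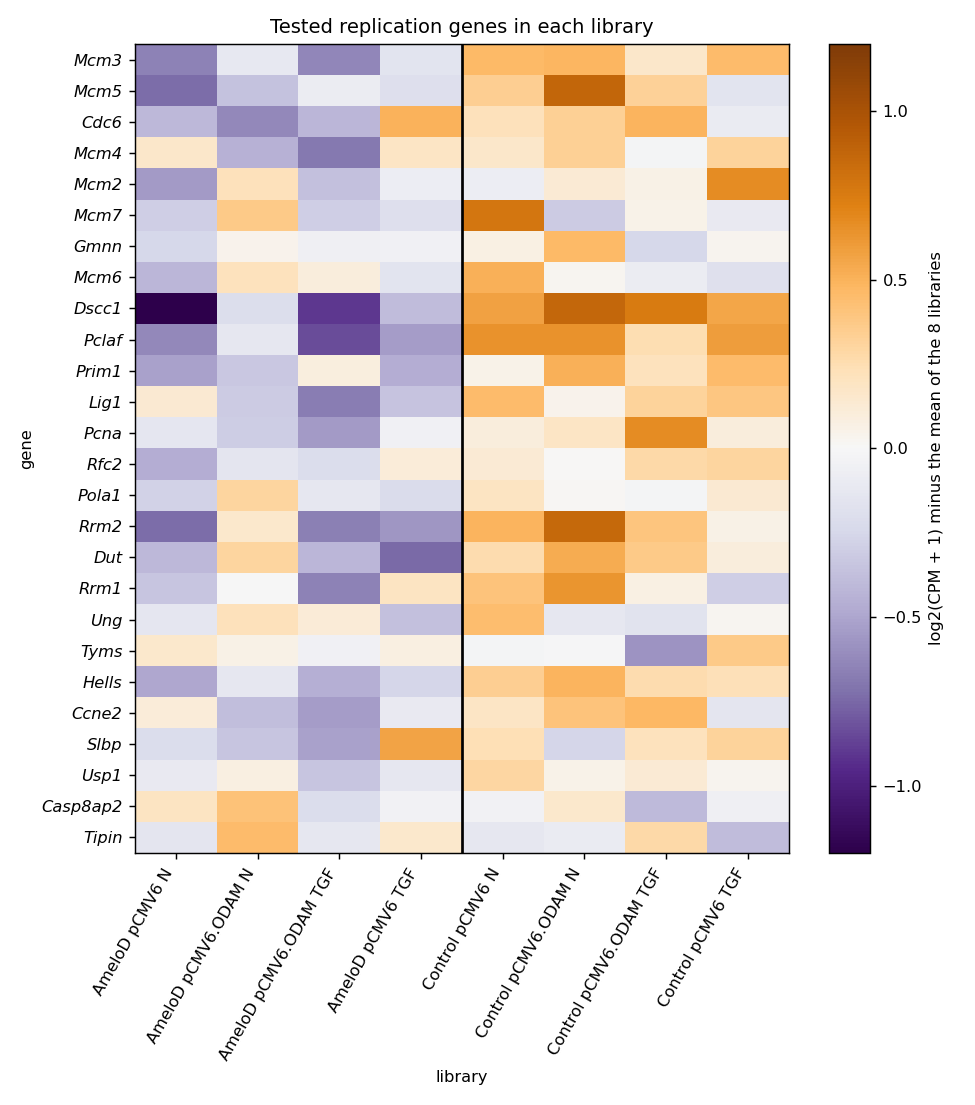
Levels of the 26 tested members by library, as log2(CPM + 1) minus each gene's mean over 8 libraries, with AmeloD libraries left of Control libraries and genes grouped by role. The members called lower are below their mean in most AmeloD libraries, and the AmeloD pCMV6.ODAM N library holds the highest AmeloD value for 15 of the 26.

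The 16 rows below the filter held 183 reads in AmeloD cells and 375 in Control cells. Ratios of AmeloD to Control, scaled for library totals, were under 1 in 10 of them. In 5 the exact 95% interval, which covers counting error only, lay wholly under 1, and in 0 wholly over 1. Such intervals were not made for other genes below the filter, so these counts have no share of all low genes to stand beside. Fen1, the flap endonuclease of Okazaki fragments, had 19 reads in AmeloD cells and 57 in Control cells, a ratio of 0.439 (0.247 to 0.749). Cdc45, the helicase activator, had 8 and 34 reads in its main row, a ratio of 0.31 (0.124 to 0.682), and its other row, on the opposite strand, had 1 read.

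Uhrf1, which guides maintenance methylation at hemimethylated DNA, had 12 reads in AmeloD cells and 34 in Control cells (ratio 0.465, 0.219 to 0.92). Dtl, the adaptor that sends Cdt1 for destruction, had 11 and 30 (ratio 0.483, 0.218 to 0.991). Mcm10, which helps activate the helicase, had 1 and 28 reads, but 24 of the 28 came from the Control pCMV6 TGF library, so that this ratio rests on that library. Without the filter, none of these 5 passed the test (limma adjusted p = 0.141 to 0.403). For Cdt1 there were 21 reads in AmeloD cells and 38 in Control cells, and for Clspn, the checkpoint mediator claspin, 23 and 44. E2f1, a founding E2F activator, had 18 and 18 reads, Wdr76 24 and 25, and Cdca7 12 and 15. Gins2 had 15 and 24 reads, Gins1 5 and 6, and the repair genes Exo1 and Blm 6 and 7 and 5 and 7.

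RefSeq promoter windows of 300 bases on assembly GRCr8, most of it upstream of the start and the last 50 bases downstream, were found for 32 of the 40 symbols; Blm, Casp8ap2, Ccne2, Cdc6, Dscc1, E2f1, Mcm4 and Rrm2 had none in the table used. The letters TTTCGCGC, TTTGGCGC, TTTCCCGC and TTTGCCGC, forms of the E2F motif, were searched on both strands, and so was CCAAT, the NF-Y motif. Matches may overlap: copies of CCAAT on opposite strands do so in Pclaf, and the end letters of an E2F form and CCAAT can be shared. At least 1 E2F form stood in 22 of 32 members (68.8%), beside 2.37% of 27457 genes with a window. Of 32 matches in the members' windows, 23 lay between 60 bases before and 40 bases after the start. Overlapping matches on opposite strands, as in Mcm2 and Gins1, were each counted, and positions in other genes were not counted.

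The windows of 3 called members with a match and 1 without are shown, in lower case with the E2F and CCAAT letters, on either strand, in capitals. They are Hells at chr1:246113879-246114178 (plus strand), Pclaf at chr8:75315467-75315766 (plus strand), Mcm3 at chr9:30733697-30733996 (minus strand) and, of the windows of Dut, that at chr3:132952180-132952479 (plus strand), all of GRCr8.
Hells: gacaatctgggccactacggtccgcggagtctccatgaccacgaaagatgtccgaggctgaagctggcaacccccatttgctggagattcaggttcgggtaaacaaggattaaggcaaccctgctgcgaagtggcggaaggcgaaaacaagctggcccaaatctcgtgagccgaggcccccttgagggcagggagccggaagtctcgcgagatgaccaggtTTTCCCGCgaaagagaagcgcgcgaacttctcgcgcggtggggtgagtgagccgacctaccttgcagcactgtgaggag
Pclaf: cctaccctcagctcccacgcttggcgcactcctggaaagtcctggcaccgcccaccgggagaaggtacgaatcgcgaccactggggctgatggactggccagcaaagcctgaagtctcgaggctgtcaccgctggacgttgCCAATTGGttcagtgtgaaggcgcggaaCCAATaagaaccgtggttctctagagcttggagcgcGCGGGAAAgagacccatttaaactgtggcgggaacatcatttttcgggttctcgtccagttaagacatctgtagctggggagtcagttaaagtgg
Mcm3: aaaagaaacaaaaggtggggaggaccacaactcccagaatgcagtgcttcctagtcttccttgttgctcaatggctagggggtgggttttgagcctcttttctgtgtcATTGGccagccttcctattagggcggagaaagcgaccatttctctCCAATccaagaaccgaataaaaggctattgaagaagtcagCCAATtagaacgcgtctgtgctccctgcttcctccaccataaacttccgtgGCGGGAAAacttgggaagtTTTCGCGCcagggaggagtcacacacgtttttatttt
Dut: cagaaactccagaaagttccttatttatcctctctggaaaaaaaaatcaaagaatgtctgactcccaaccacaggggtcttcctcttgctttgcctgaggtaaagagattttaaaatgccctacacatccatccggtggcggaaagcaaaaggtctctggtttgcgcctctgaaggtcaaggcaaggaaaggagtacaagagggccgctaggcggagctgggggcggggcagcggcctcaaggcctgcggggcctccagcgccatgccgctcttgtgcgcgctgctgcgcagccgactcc
Hells and Pclaf hold 1 E2F match each, beginning 29 and 45 bases before the start, and Mcm3 holds 2, beginning 6 bases before and 14 bases after it. Pclaf and Mcm3 each hold CCAAT letters 3 times, farther upstream.

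An E2F form stood in 5 of 7 called members with a window, in 10 of 13 tested members that did not pass and in 7 of 12 untested members. Among genes of mitosis, 1 of 51 held it (1.96%), and among other replication genes 16 of 46 (34.8%). CCAAT stood in 20 of 32 members (62.5%), in 38 of 51 mitosis genes (74.5%) and in 39.6% of all genes. Median GC content was 57.2% for the members' windows, 59% for those of mitosis genes and 51.7% for all windows. A match describes the letters only.

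Genes of the same processes outside the 40 were read from lists written down beside them. Of 28 other replication genes tested, 3 fell and 0 rose in AmeloD cells, with a median log2 change of -0.13. Among all genes tested, 4.75% were called lower and 9.07% higher, with a median of 0.05. Nasp, a histone chaperone, had 7.66, 5.71, 1.32 and 4.99 CPM in AmeloD cells, against 7.76, 10.5, 8.19 and 7.82 CPM in Control cells (log2 change -0.83 ± 0.22, limma adjusted p = 0.0109). The AmeloD pCMV6.ODAM TGF library was lowest. The call was lost under 6 of 20 other settings, with an adjusted p of up to 0.16, among them DESeq2, no filter and no trend in the variance. It was lost without that library (limma adjusted p = 0.0847) and without the Control pCMV6.ODAM N or pCMV6.ODAM TGF library (limma adjusted p = 0.0547 and 0.0947). Orc6, a subunit of the origin recognition complex, changed by -0.76 ± 0.19 (limma adjusted p = 0.00635, or 0.059 without the Control pCMV6 TGF library). Chaf1a, of the chromatin assembly factor, changed by -0.62 ± 0.19 (limma adjusted p = 0.0322), lost under 9 of 19 other settings. For Chaf1a, leaving out any AmeloD library but pCMV6 TGF gave a limma adjusted p of 0.0783 to 0.156, and leaving out any Control library but pCMV6 TGF gave 0.051 to 0.155.

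Among 14 tested genes of the E2F and RB families and G1/S control, 1 rose and 1 fell, with a median log2 change of 0.09, beside 9.07% of all genes called higher, 4.75% called lower and a median of 0.05, so that the counts lie near those of all genes. Ccne1, cyclin E1, had 5.02, 4.3, 4.9 and 2.96 CPM in AmeloD cells, against 2.25, 2.57, 1.56 and 2.14 CPM in Control cells, with no overlap (log2 change 0.75 ± 0.18, limma adjusted p = 0.00611). Its paralog Ccne2, a member, lay at -0.46. E2f5, an E2F that works mainly as a repressor with RB relatives, had 1.23, 1.48, 2.05 and 1.76 CPM in AmeloD cells, against 3.38, 6.03, 5.52 and 5.12 CPM in Control cells, again with no overlap (log2 change -1.18 ± 0.18, limma adjusted p = 3.86e-05).

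Of 21 other nucleotide synthesis genes tested, 2 rose and 0 fell, with a median of 0.08, again near the 9.07% called higher and the median of 0.05 of all genes. Nme1, a nucleoside diphosphate kinase, had 60 ± 5.67 CPM in AmeloD cells and 41.8 ± 4.41 CPM in Control cells (SD, n = 4 each; log2 change 0.51 ± 0.10, limma adjusted p = 0.00132). Its near copy Nme2 changed by 0.28 ± 0.08 (limma adjusted p = 0.0175), which did not pass with TMM scaling (limma adjusted p = 0.162) or in edgeR or DESeq2, nor without the Control pCMV6 N or pCMV6.ODAM TGF library (limma adjusted p = 0.0554 and 0.0555), and reads of so similar a pair may be split between them. Of 34 mitosis genes tested, 6 fell (Mki67, Anln, Ccnb1, Tacc3, Hmgb2 and Cbx5) and 0 rose, with a median of -0.26. The shares of all genes tested were 4.75% called lower and 9.07% called higher, with a median of 0.05. Mki67, the proliferation antigen Ki-67, had 9.94, 7.86, 4.61 and 8.87 CPM in AmeloD cells, against 16.5, 13.3, 12.7 and 11.7 CPM in Control cells, with no overlap (log2 change -0.75 ± 0.15, limma adjusted p = 0.00111). Of the 6, Mki67, Anln and Ccnb1 were called under all 20 alternatives, while the calls of Tacc3, Hmgb2 and Cbx5 were lost under 6, 4 and 11 of them, each with some libraries left out (limma adjusted p of up to 0.13, 0.117 and 0.185 over the alternatives). Differences between the lists and the 40 members were not tested.

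**Figure D4:**
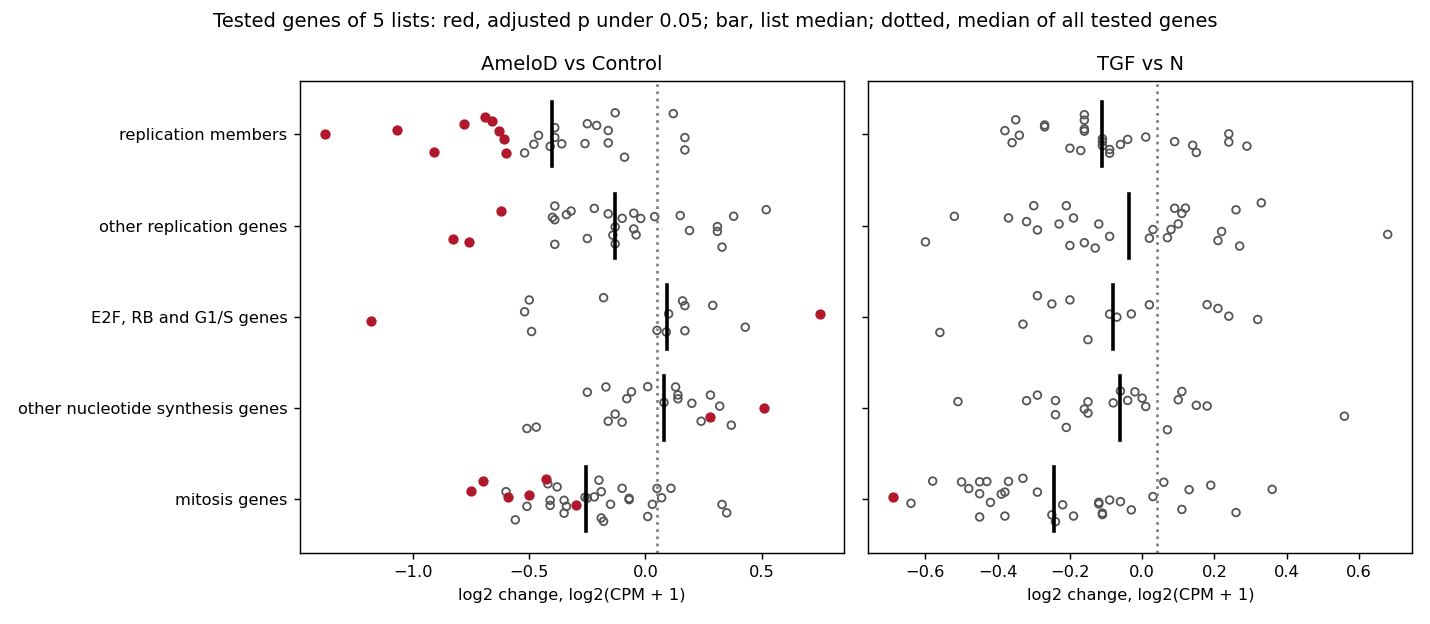
Log2 change on the log2(CPM + 1) scale of every tested gene of the 40 replication genes and of the 4 comparison lists, a point a gene, in AmeloD against Control (left) and TGF against N (right); red points passed an adjusted p of 0.05, bars are list medians and the dotted line is the median of all genes tested. In the left panel medians are -0.40 for the replication genes, -0.13 for other replication genes, 0.09 for E2F, RB and G1/S genes, 0.08 for other nucleotide synthesis genes and -0.26 for mitosis genes, and in the right panel the only red point is Anln at -0.69.

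The genotype difference was also read within each level of the other factors. Fits with a term for genotype by TGF label or for genotype by plasmid called 4 of the 26 within TGF libraries (Dscc1, Hells, Lig1 and Pclaf; 1.61% of all genes tested were called lower), 5 within N libraries (Dscc1, Hells, Mcm5, Pclaf and Rrm2; 2.12% of all), 6 within pCMV6.ODAM libraries (Ccne2, Cdc6, Dscc1, Hells, Pclaf and Rrm2; 1.84% of all) and 4 within pCMV6 libraries (Dscc1, Hells, Pclaf and Rrm2; 1.96% of all), all lower. These differences in count are not differences in effect. The test of the difference itself called 0 of 26 members for TGF label (limma; 1 at an unadjusted p under 0.05, and 0 in edgeR and in DESeq2 after adjustment), where 0.0146% of all genes were called, and 0 of 26 for plasmid (3 at an unadjusted p under 0.05, and 0 in edgeR and in DESeq2), where 0% were. The member at the top for TGF label was Mcm5, whose AmeloD minus Control change was -0.22 ± 0.27 within TGF and -1.16 ± 0.27 within N, an interaction of 0.93 ± 0.38 with a limma adjusted p of 0.999. For plasmid they were Cdc6 (interaction -0.91), Ccne2 (-0.88) and Ung (0.80).

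TGF against N libraries, over both genotypes and plasmids, gave 0 calls among the 26 members in limma, 0 in edgeR and 0 in DESeq2, beside 1.81% of all genes tested in limma (1.53% higher and 0.277% lower). The median log2 change was -0.11, beside 0.04 for all genes, with 19 of 26 below 0 (73.1%), beside 41.8% of all genes. For single pairs of libraries, the members' median was -0.34 in AmeloD pCMV6.ODAM and 0.13 in AmeloD pCMV6. In Control cells it was -0.11 with pCMV6.ODAM and -0.06 with pCMV6, so that the sign differed among the pairs. The median of all genes tested was 0.09 in AmeloD pCMV6.ODAM, -0.02 in AmeloD pCMV6, 0.15 in Control pCMV6.ODAM and -0.06 in Control pCMV6. At an unadjusted p under 0.05 there was 1 member, Rrm2, with 3 ± 1.42 CPM in TGF libraries and 4.38 ± 2.23 CPM in N libraries (SD, n = 4 each), a log2 change of -0.38 ± 0.18 (limma adjusted p = 0.404). Hells, the best counted member, had 50.7 ± 12.3 CPM in TGF libraries and 55.7 ± 16.8 CPM in N libraries, a log2 change of -0.11 ± 0.11. For Rrm2 and Hells, these SDs pool both genotypes and so include the difference between them, which the fitted standard errors do not. Changes of the members ran between -0.38 and 0.29, with standard errors between 0.11 and 0.22. Among the lists, Anln, which encodes anillin of the contractile ring, was called lower in TGF libraries (log2 change -0.69 ± 0.15, limma adjusted p = 0.0106), the only call among the mitosis genes, whose median was -0.25. That call was lost under 5 of 20 other settings, among them without the AmeloD pCMV6.ODAM N library (limma adjusted p = 0.105) and without the Control pCMV6 N or pCMV6 TGF library (limma adjusted p = 0.111 and 0.0679).

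Between pCMV6.ODAM and pCMV6 libraries, 0 of 26 members were called in limma, 0 in edgeR and 0 in DESeq2, as were 0% of all genes tested in limma. The median log2 change was 0.01, beside 0.03 for all genes, and 13 of the 26 were below 0. At an unadjusted p under 0.05 there were 4 members, Dut at 0.39 ± 0.18, Rrm2 at 0.38 ± 0.18, Mcm4 at -0.41 ± 0.19 and Slbp at -0.45 ± 0.19, with limma adjusted p of 0.71 to 0.739. Between single libraries, the median of the members for pCMV6.ODAM minus pCMV6 was 0.35 in AmeloD N, -0.25 in AmeloD TGF, 0.10 in Control N and 0.00 in Control TGF, so that its sign differed among the 4 pairs. That of all genes tested was -0.04, 0.06, -0.06 and 0.15 in the same order. The AmeloD pCMV6.ODAM N library held the highest AmeloD value for 15 of the 26 members, beside 18.9% of all genes tested, and these values rest on that library alone.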

How the data were processed

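RNA from 8 SF2 libraries was sequenced after 3' library preparation (QIAseq UPX 3' kit), so reads mark transcript ends and gene length does not enter the values. Per the submitters' processing notes, reads were trimmed with Trim Galore 0.6.7, Trimmomatic 0.39 and cutadapt 3.7, aligned to mRatBN7.2 with STAR 2.7.10a and counted with featureCounts 2.0.1. Those notes also name DESeq2 1.20.0. The authors deposited the values as CPM (reads scaled to the library) per gene. The handling of molecular tags and strand is not given in the sources at hand.

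Every deposited CPM value was a whole multiple of the worth of 1 read of its library (100% within a tolerance of 0.01), so whole reads and library totals were recovered. Among the 6849 genes that reached 1 CPM in 4 or more libraries, 208 had no symbol. They were all tested on log2(CPM + 1) with limma 3.58.1 (R 4.3.3, empirical Bayes with trend, two-sided), with genotype, plasmid and TGF label as additive terms over all 8 libraries (4 residual degrees of freedom, 3 with an interaction). The residual thus mixes library spread with interactions left out of the fit. P-values were adjusted over all tested genes and called at 0.05. Fold changes carry the added 1 CPM, so those of low genes are understated. The code was tested on simulated data. Alternatives included other pseudocounts, filters and scalings, edgeR 4.0.16 and DESeq2 1.42.0 on the recovered reads, thinned reads, a block of matched label combinations and leaving out each library.

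The members and lists were chosen with earlier results of these data known. All 40 members were accounted for, and every called member was named with its value in each library. Of the lists, called genes were named. Intervals and floors cover counting error only. Coordinates of genes are of mRatBN7.2 and those of promoter windows of GRCr8.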

Additional observations from a re-analysis of the deposited data

Results flagged for a closer look

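In 72 groups of 4 libraries with at least 10 reads, the library farthest from the others was set against the range of its group by Dixon's ratio; chance alone marks about 1 in 20 such groups. There were 7 values past it. Of the AmeloD libraries, pCMV6.ODAM N stood high for Rrm2, at 3.86 CPM against 1.61 to 1.94 CPM in the other AmeloD libraries, and for Mcm7, at 2.67 CPM against 1.32 to 1.48 CPM. The AmeloD pCMV6 TGF library stood high for Cdc6, at 4.07 CPM against 1.33 to 1.7 CPM. Of the Control libraries, pCMV6.ODAM TGF stood high for Pcna, at 5.07 CPM against 3.07 to 3.32 CPM, and low for Pclaf, at 3.77 CPM against 5.06 to 5.28 CPM, and for Mcm3, at 1.75 CPM against 2.36 to 2.44 CPM. The Control pCMV6 TGF library stood high for Mcm10, at 1.35 CPM against 0 to 0.188 CPM. The libraries were not chosen beforehand, and no reason for these values was tested.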

How the results depend on the processing

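In AmeloD against Control, the count of 9 members called was 5 when 2 CPM in at least 4 libraries were asked for, which leaves 13 members tested, and 5 without the AmeloD pCMV6 N library; leaving out each library in turn gave 5 to 8. It was 6 with no filter beyond 1 read, 10 with TMM scaling and in edgeR, 8 in DESeq2, 7 with thinned reads, and 8 with a filter on the mean over all libraries, which was added after seeing the data. Over all genes, lower calls also rose with TMM scaling, to 481 from 325 in the main fit. Shares of all genes under the remaining settings are not given here, so these counts compare settings for the members only. Every member called under any of these was lower. Dscc1, Pclaf, Hells and Rrm2 were called under all 20 alternatives. The members' median of -0.40 was -0.62 with log2(CPM + 0.1), -0.68 in edgeR and -0.70 in DESeq2, which shrink low genes less by construction. The medians of edgeR and DESeq2 also hold their own scaling of the libraries. For TGF label, plasmid and both interactions, 0 members were called under every alternative run. None of the 9 called members changed sign under any alternative, but 4 members that did not pass did: Mcm6 (0.08 at the highest), Mcm7 (0.04) and Ung (0.07), and Tyms (-0.04 at the lowest). Replicate numbers in the labels pair no libraries, but each AmeloD library has a Control library of the same plasmid and TGF label. With these 4 combinations as a block, added after seeing the data, 9 members were called, all 9 shared with the additive fit, and the median stayed at -0.40; 0 members were called for TGF label, plasmid and the interactions with such a block. Depth limits the 16 untested rows, at 1 to 76 reads each over 8 libraries.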
